A study of Caenorhabditis elegans with 10 samples.

Results

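Germ granule genes of *Caenorhabditis elegans*, 7 in all, are described here. Their RNA counts in pull-downs of the tagged dynein light chain DLC-1 are set against those in inputs. The 7 genes are the PGL genes *pgl-1* and *pgl-3*, the GLH gene *glh-4* and the 4 MEG genes, *meg-1* to *meg-4*. They were chosen by name among the 2732 genes that the authors' deposited table lists as enriched, so 7 of 2732 listed genes are covered. RNA was sequenced from 5 FLAG immunoprecipitates and 5 inputs, and the series' design text gives as the purpose the capture of the RNAs that associate with DLC-1. All 10 samples were whole young adult worms of the genotype 3xFLAG::DLC-1, grown in synchrony on NA22 plates. The immunoprecipitates were made with an antibody against FLAG, and the inputs had none. Per the labels' protocols the input libraries were primed with oligo-dT and the immunoprecipitated RNA had no such enrichment, so library preparation and group cannot be told apart. Pull-downs from worms without the tag were not analysed here.

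P granules are RNA and protein condensates that mark the germ lineage of the worm and sit at the nuclear pores of germ cells for most of its life. PGL-1 and PGL-3 are self-associating scaffold proteins of these granules, and the GLH proteins are Vasa-related RNA helicases that dock the granules at the nuclear envelope. The MEG proteins are disordered proteins of the early embryo, loaded as maternal products, where they control which granules persist in the germ lineage. MEG-3 and MEG-4 form a coat on PGL condensates and gather mRNAs, while MEG-1 and MEG-2 are needed for the germline to develop. Adult hermaphrodites make the maternal RNAs of the embryo in their germline. DLC-1 belongs to the LC8 family of light chains, which serve the dynein motor and a wide range of other protein complexes.

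All 7 mRNAs were higher after immunoprecipitation than in the input extracts, by 2.13-fold for *meg-1* up to 3.46-fold for *pgl-1* in the authors' deposited table. Being listed, which meant over 2-fold at an adjusted p under 0.01, is what chose them, and 13.4% of the 20328 genes tested were listed (10.6% of the protein-coding genes of the reference). The fold changes are therefore a description and carry no test here. Their authors' adjusted p-values, from a one-sided Wald-type test in DESeq2 as far as the table shows, ran from 2.59e-44 for *glh-4* to 1.44e-15 for *meg-2* in the authors' deposited table. The median log2 fold change of the 7 was 1.42, against 1.81 for the 2116 listed protein-coding genes. Each of the 7 lay below that median, so they stood in the lower part of the table. None of the 7 reached 4-fold, while 7.21% of the genes tested were listed at or above it. All 7 also had a mean of at least 100 normalized counts in the deposited table of the authors, and 8.24% of the genes tested were listed with such a mean. With 2-fold as the null value of the one-sided test, *pgl-1*, *glh-4* and *meg-4* passed (Benjamini-Hochberg adjusted over all genes tested at 0.01), and 6.64% of the genes tested were listed and passed it. The 7 genes were chosen on this contrast, so nothing is read from these counts.

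The table has no value for single libraries. The values per group given below are the mean normalized counts that the deposited mean and fold change imply for 5 immunoprecipitates and 5 inputs, and the spread is the standard error (SE) of the log2 fold change with its 95% interval. Whole-worm extract holds many tissues, so more cells of a type and more RNA per cell cannot be told apart in any of these means. The labels do not say whether the replicate numbers stand for separate cultures, and the spread may be technical. Total counts per library are not in the table, and the depth is unknown.

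Of the scaffold genes, *pgl-1* had the highest fold of the 7. This gene (WBGene00003992, ZK381.4) lies on chromosome IV at 6974442 to 6977318 of WBcel235. The implied mean of *pgl-1* was 3286 normalized counts in the immunoprecipitates and 951 in the inputs, the widest gap in counts of the 7. The authors' deposited table gives it a log2 fold change of 1.79 ± 0.20 (SE), with a 95% interval of 1.41 to 2.17. Its mean over all libraries was 2118 normalized counts in the authors' deposited table, or 736 per kb of gene span, the highest of the 7 on both scales.

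*pgl-3* encodes the second scaffold protein, a paralogue that forms condensates with PGL-1. It (WBGene00003994, C18G1.4) lies on chromosome V at 4755979 to 4758587 of WBcel235. Its implied mean was 1608 normalized counts in the immunoprecipitates and 539 in the inputs. The authors' deposited table gives *pgl-3* a log2 fold change of 1.58 ± 0.19 (SE; 95% interval 1.21 to 1.95). Per kb of gene span the mean of *pgl-1* was 1.79 times that of *pgl-3*, while their log2 fold changes differed by 0.21 with an SE of 0.27 if the estimates are taken as independent. The 95% interval of that difference was -0.32 to 0.74 on the same assumption, and the difference was not tested.

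The helicase gene *glh-4* encodes a Vasa-related protein of P granules. It (WBGene00001601, T12F5.3) lies on chromosome I at 3727027 to 3731179 of WBcel235. Its implied mean was 1647 normalized counts in the immunoprecipitates and 615 in the inputs. The log2 fold change of *glh-4* in the authors' deposited table was 1.42 ± 0.10 (SE; 95% interval 1.23 to 1.62). Its fold was lower than that of *pgl-1*, by 0.37 on the log2 scale. The 95% interval was -0.06 to 0.80 if the estimates are independent, and the difference was not tested.

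**Figure D1:**
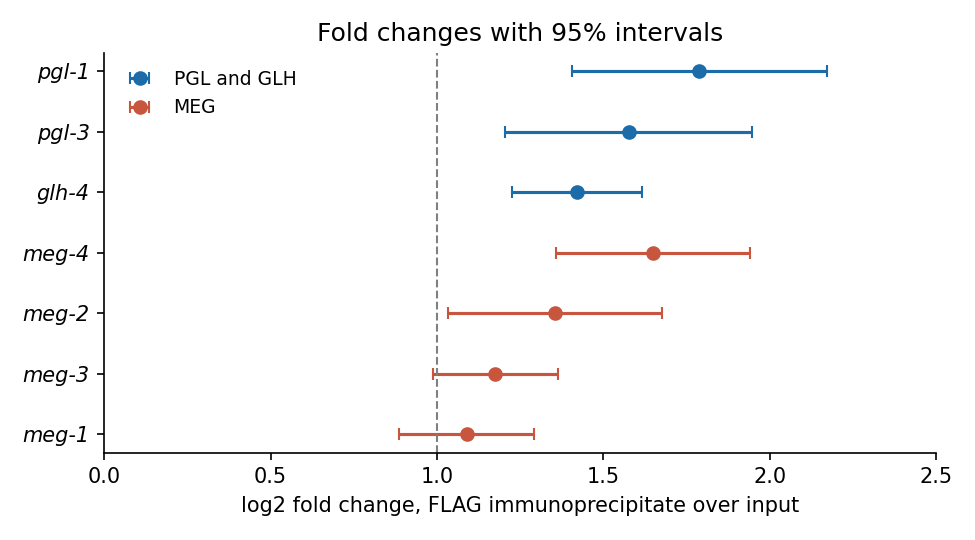
Log2 fold change of FLAG immunoprecipitate over input for the 7 genes, from the authors' deposited table; points are estimates, bars are 95% intervals from the standard error, and the dashed line marks 2-fold. The PGL and GLH genes run from 1.42 to 1.79 and the MEG genes from 1.09 to 1.65, and the intervals of *meg-1* and *meg-3* reach below the line.

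Among the MEG genes, *meg-1* had the most counts and the lowest fold. It encodes a P granule protein of the early embryo and (WBGene00010492, K02B9.1) lies on chromosome X at 13927036 to 13929634 of WBcel235. The implied mean of *meg-1* was 1931 normalized counts in the immunoprecipitates and 907 in the inputs. The authors' deposited table gives *meg-1* a log2 fold change of 1.09 ± 0.10 (SE; 95% interval 0.89 to 1.29). This put it just inside the threshold of the table, whose lowest entry is *taf-5* at 1.00 ± 0.25 in the authors' deposited table. Values just outside the threshold are not in the table.

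*meg-2* is the neighbour and partner of *meg-1*, with which it acts redundantly in germline development. It (WBGene00010493, K02B9.2) lies at 13922643 to 13926129 of chromosome X, with 906 bp between the 2 genes. Its implied mean was 451 normalized counts in the immunoprecipitates and 176 in the inputs. The log2 fold change of *meg-2* in the authors' deposited table was 1.36 ± 0.16 (SE; 95% interval 1.03 to 1.68). Per kb of gene span *meg-1* had 6.08 times the mean of *meg-2*, and its log2 fold change was lower by 0.27. The 95% interval of the difference (*meg-1* minus *meg-2*) was -0.65 to 0.11 if the estimates are independent. These adjacent genes were far apart in level, and their difference in fold was not tested.

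The coat protein gene *meg-3* (WBGene00001569, F52D2.4) lies on chromosome X at 1986469 to 1989607 of WBcel235. For *meg-3* the implied mean was 1104 normalized counts in the immunoprecipitates and 489 in the inputs. The authors' deposited table gives *meg-3* a log2 fold change of 1.18 ± 0.10 (SE; 95% interval 0.99 to 1.36). With *meg-1*, it is 1 of the 2 genes whose interval reaches below 2-fold, and the lower bounds of the other 5 lie above it.

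*meg-4* encodes the close partner of MEG-3 in the granule coat. It (WBGene00016485, C36C9.1) lies on the same chromosome at 1682954 to 1686419, with 300049 bp between the 2 genes. For *meg-4* the implied mean was 543 normalized counts in the immunoprecipitates and 173 in the inputs. The log2 fold change of *meg-4* in the authors' deposited table was 1.65 ± 0.15 (SE; 95% interval 1.36 to 1.94), the highest of the MEG genes. Per kb of gene span *meg-4* had 0.41 times the mean of *meg-3*, and it had a log2 fold change higher by 0.47. The 95% interval of that difference was 0.13 to 0.82 if the estimates are independent, while the intervals of the 2 genes overlapped slightly, at 1.36. In this pair the gene with the lower mean had the higher fold estimate.

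**Figure D2:**
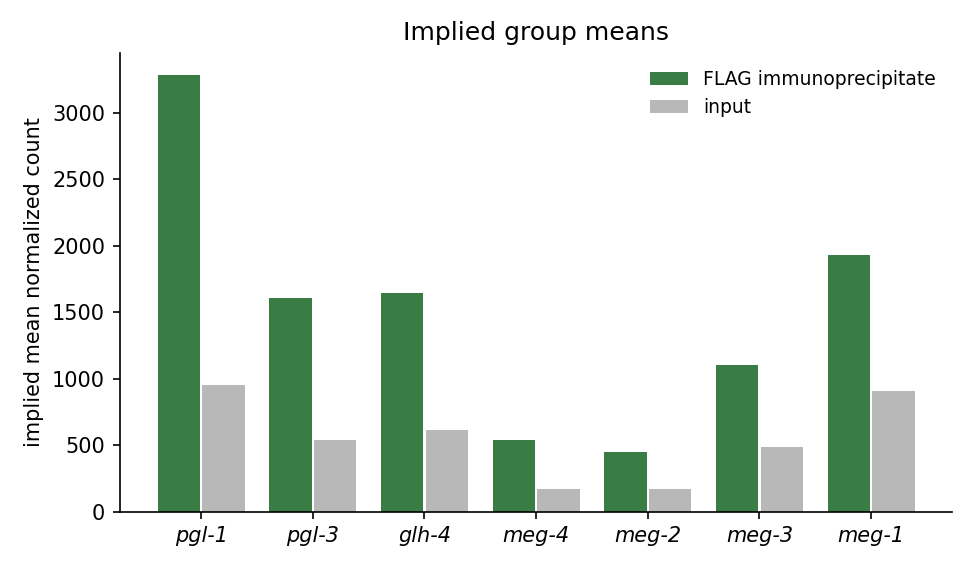
Mean normalized count in FLAG immunoprecipitates (green, left of each pair) and inputs (grey, right) implied by the deposited mean and fold change of each gene; the table gives no values per library, so there are no error bars. *pgl-1* has the tallest pair at 3286 and 951, and *meg-2* and *meg-4* the shortest, with 451 and 176 for *meg-2* and 543 and 173 for *meg-4*.

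Ordered by fold, the genes ran *pgl-1*, *meg-4*, *pgl-3*, *glh-4*, *meg-2*, *meg-3* and *meg-1*. In all 6 neighbouring pairs of that order the 95% intervals overlapped. Over all 21 pairs, 3 had intervals apart, which were *pgl-1* with *meg-3*, *pgl-1* with *meg-1*, and *meg-4* with *meg-1*. The ends of the order, *pgl-1* and *meg-1*, differed by 0.70 ± 0.22 on the log2 scale (SE if independent). All 7 estimates come from the same 10 libraries and their folds chose the genes, so the intervals describe the order and do not test it.

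The constitutive genes and the embryonic MEG genes overlapped in fold. The 3 PGL and GLH genes ran from 1.42 to 1.79 in log2 fold change with a median of 1.58, and the 4 MEG genes from 1.09 to 1.65 with a median of 1.27, both in the authors' deposited table. In 10 of the 12 pairs of a PGL or GLH gene with a MEG gene, the PGL or GLH gene had the higher fold. The exceptions were *meg-4* with *pgl-3* and *meg-4* with *glh-4*. Summed over the genes, the implied means gave 6541 normalized counts in the immunoprecipitates and 2105 in the inputs for PGL and GLH, a ratio of 3.11. For the MEG genes they gave 4029 in the immunoprecipitates and 1746 in the inputs, a ratio of 2.31. The gene with the most counts weighs most in each sum. These are *pgl-1*, with the highest fold of its class, and *meg-1*, with the lowest of its own. The median folds of the classes were closer, at 2.98 for PGL and GLH and 2.40 for MEG. Few genes make up each class and they were chosen on this contrast, so the difference between the classes was not tested.

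Levels also overlapped between the classes, with or without division by gene length. The genes span 2599 to 4153 bp with introns, and transcript lengths were not used here. Per kb of span, the implied input level was 349 normalized counts for *meg-1*, 330 for *pgl-1*, 207 for *pgl-3*, 156 for *meg-3*, 148 for *glh-4*, 50.5 for *meg-2* and 50.0 for *meg-4*. The 2 highest values, of *meg-1* and *pgl-1*, lie close together: with the fold of *pgl-1* at its lower 95% bound, or without dividing by span, *pgl-1* is the higher. *meg-2* and *meg-4* had the lowest values. In the immunoprecipitates the implied level per kb of span was highest for *pgl-1*, at 1142, with *meg-1* next at 743, and lowest for *meg-2* at 129.

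The implied variation between libraries also differed among the genes. The SE and the implied means give, for a negative binomial model with 5 libraries a group, an implied coefficient of variation (CV) between libraries beyond counting error. It was 21.2% for *pgl-1* and 20.4% for *pgl-3*, but 10.4% for *glh-4*. For the MEG genes it was 9.79% for *meg-3*, 11.03% for *meg-1*, 15.1% for *meg-4* and 16.8% for *meg-2*. The median of the 972 listed protein-coding genes with a mean between those of *meg-2* and *pgl-1* was 20.5%, and 6 of the 7 genes lay below it, all but *pgl-1*. DESeq2 draws such spreads toward the trend over genes of like mean, so these are smoothed values and not the spread seen in any gene alone.

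**Figure D3:**
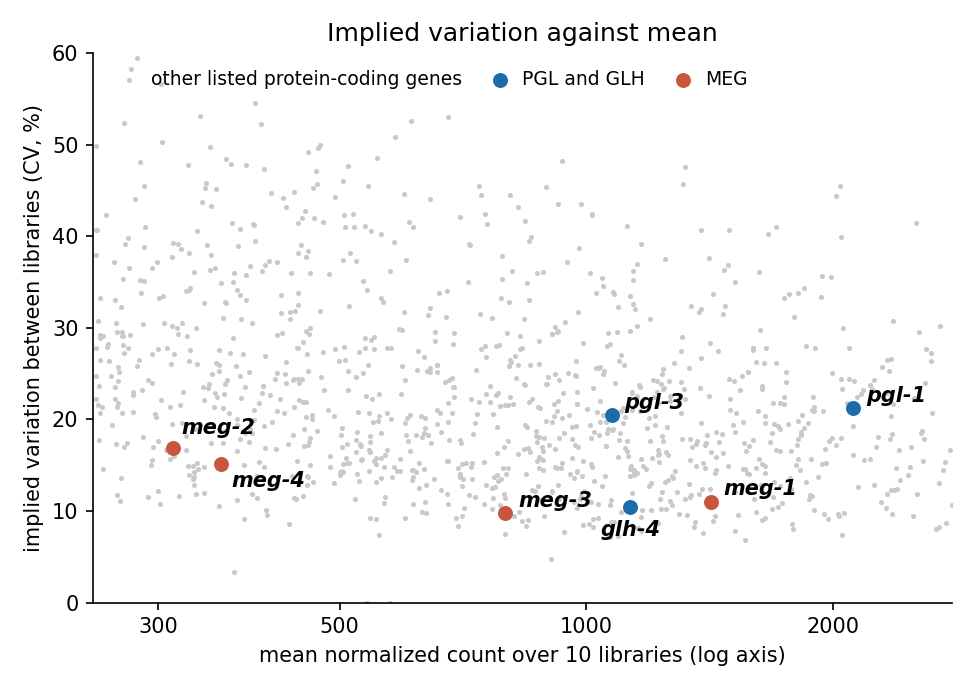
Implied coefficient of variation between libraries against the mean normalized count (log axis), for the 7 genes (coloured and named) and other listed protein-coding genes (grey) with means from 250 to 2800; 8 genes above 60% are not drawn. *glh-4*, *meg-1* and *meg-3* lie at the lower edge of the cloud near 10% and *pgl-1* and *pgl-3* near its middle.

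Among genes of like mean, *pgl-1* stood near the median fold and the other 6 below it. The same 972 genes had in the authors' deposited table a median of 1.73 on the log2 scale. Of these genes 53.6% had a lower fold than *pgl-1*, 43.9% a lower fold than *meg-4* and 40.02% a lower fold than *pgl-3*. At the other end 13.8% had a lower fold than *meg-3* and 6.89% a lower fold than *meg-1*. In rank by fold over the 2732 listed genes, *pgl-1* was number 1658 and *meg-1* number 2588.

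**Figure D4:**
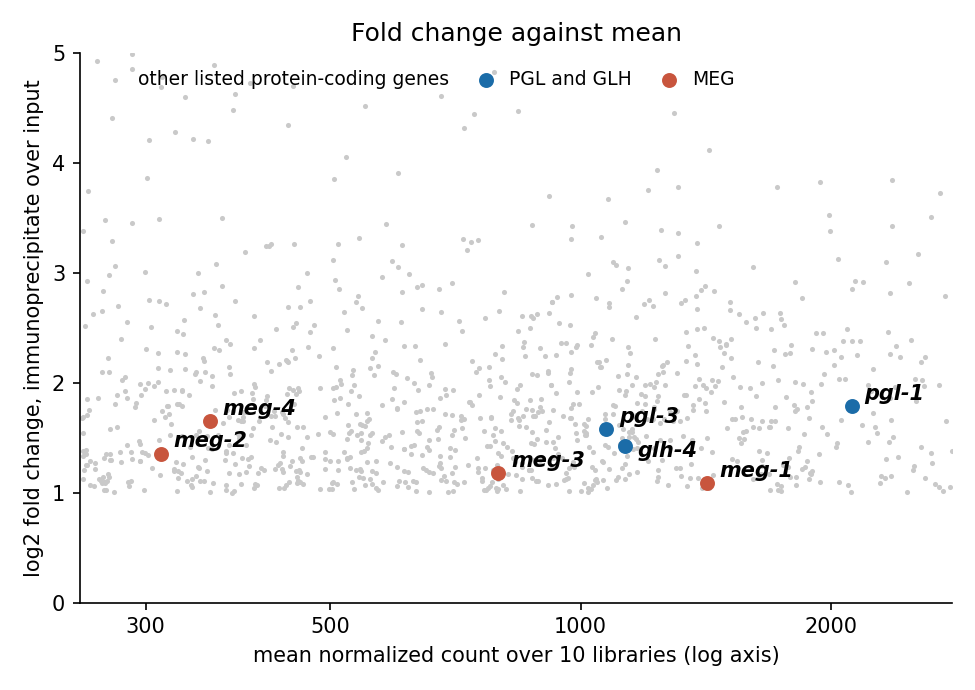
Log2 fold change of FLAG immunoprecipitate over input against the mean normalized count (log axis), both from the authors' deposited table, for the 7 genes (coloured and named) and other listed protein-coding genes (grey) with means from 250 to 2800; 50 genes above a log2 fold change of 5 are not drawn. *pgl-1* lies near the middle of the cloud and *meg-1* close to the lower limit of the table at 1.00. All but *pgl-1* lie below 1.73, the median of the 972 genes with a mean between those of *meg-2* and *pgl-1*.

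The table lacks 4 close relatives, namely *pgl-2* and 3 further GLH genes. *pgl-2* lies on chromosome III (8670543 to 8675051) and *glh-1* (6854478 to 6857536), *glh-2* (6513928 to 6517507) and *glh-3* (5792321 to 5795114) on chromosome I, all in WBcel235. Of the 11 genes of the 3 families, 7 were thus listed, against 13.4% of all genes tested and 10.6% of protein-coding genes. They were 2 of the 3 PGL genes, 1 of the 4 GLH genes and 4 of the 4 MEG genes looked up. The 7 were chosen because they were listed, so nothing is read from these counts. *glh-1* encodes the main Vasa-related helicase of P granules, so the listed GLH gene is not the best-known one. A gene that is missing from the table may have been equal in both groups, lower after immunoprecipitation or enriched by under 2-fold. It may also have been over 2-fold without an adjusted p under 0.01, or too weakly expressed to test. The table does not separate these. By the ranks behind the adjusted p-values, at least 762 genes passed an adjusted p of 0.01 without being listed. Whether any of the 4 is among them is not known. The families hold paralogues, and the sources used here do not give how reads that match several of them were counted.

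No annotated gene overlaps any of the 7. Of the 12 nearest protein-coding genes on either side that are not themselves among the 7, 2 were listed, a share near the 10.6% of all protein-coding genes given such small numbers. In the authors' deposited table these were *lin-59*, a chromatin regulator gene beside *glh-4*, with a log2 fold change of 1.83 ± 0.19 (SE), and *ekl-5* beside *meg-2*, with 1.63 ± 0.42. The other 10 were not listed. They were *nhr-249* and the meiotic axis gene *him-3* beside *pgl-1*, *hil-4* and *bgnt-1.4* beside *pgl-3*, T12F5.2 beside *glh-4*, *elt-3* beside *meg-1*, F52D2.12 and Y40A1A.2 beside *meg-3*, and *fbxa-170* and C36C9.11 beside *meg-4*. Conversely *glh-3* was not listed while both of its neighbours were, the CPEB-related gene *cpb-3* at 2.23 ± 0.25 and the kinase gene *mtk-1* at 1.12 ± 0.13 in the authors' deposited table. All 4 MEG genes lie on chromosome X, where 13.004% of the protein-coding genes were listed. The share was 14.4% on chromosome I, 9.90% on II, 13.8% on III, 10.3% on IV and 6.07% on V. The listed protein-coding genes of chromosome X had a median log2 fold change of 1.70. That median was 1.79 on chromosome I, 1.90 on II, 1.85 on III, 1.82 on IV and 1.85 on V. Whether the chromosome bears on the folds was not tested.

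Other genes of the germ granule pathway were listed in part. Of 15 further genes of constitutive germ granules, 7 were listed (46.7%, against 13.4% of all genes tested and 10.6% of protein-coding genes). The authors' deposited table gave the listed ones a median log2 fold of 1.56. This list was chosen with earlier results of these data known, so nothing is read from its share. In the authors' deposited table the Argonaute genes *wago-4*, with a log2 fold change of 3.51 ± 0.25 (SE), and *csr-1*, with 2.30 ± 0.38, were above all 7 PGL, GLH and MEG genes. *gls-1*, a germline RNA regulator, stood at 1.59 ± 0.12, *mut-16*, the scaffold of Mutator foci, at 1.56 ± 0.16 and the helicase gene *rde-12* at 1.46 ± 0.16 in the authors' deposited table. *deps-1*, which promotes PGL assembly, had 1.27 ± 0.22 and *gld-3*, a Bicaudal-C homologue, 1.15 ± 0.18 in the authors' deposited table. Not listed were the Argonaute genes *prg-1* and *wago-1*, the Z granule helicase gene *znfx-1*, the LOTUS-domain genes *mip-1* and *mip-2*, the cap-binding gene *ife-1*, and *car-1* and *cgh-1*, whose proteins also occur in P bodies.

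Of 11 genes that act on granules or in germ lineage cells of the early embryo, 4 were listed (36.4%). The share was 13.4% for all genes tested and 10.6% for protein-coding genes. The authors' deposited table gave the listed ones a median log2 fold of 1.41. This list too was chosen with earlier results of these data known, so nothing is read from its share. In the authors' deposited table *par-1*, the polarity kinase of the posterior cortex, had a log2 fold change of 2.39 ± 0.16 (SE), above all 7 granule genes. The phosphatase subunit genes *pptr-1*, which stabilises granules in the embryo, and *pptr-2* stood at 1.32 ± 0.14 and 1.49 ± 0.29 in the authors' deposited table. *mex-5*, whose RNA-binding protein promotes granule disassembly in the anterior, had 1.09 ± 0.22, almost the value of *meg-1*, in the authors' deposited table. The kinase gene *mbk-2*, which acts on MEG proteins, was not listed, and neither were *mex-1*, *mex-6*, *pie-1*, *pos-1*, *nos-2* and *spn-4*. Of 5 genes for the removal of PGL granules from somatic cells by autophagy, none was listed (*sepa-1*, *epg-2*, *epg-5*, *lgg-1* and *bec-1*), which in so short a list is near the background of 13.4%. Over these 3 lists 11 of 31 genes were listed (35.5%, against 13.4% of all genes tested). Of the 11, 3 lay above all 7 granule genes and 1 below them.

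**Figure D5:**
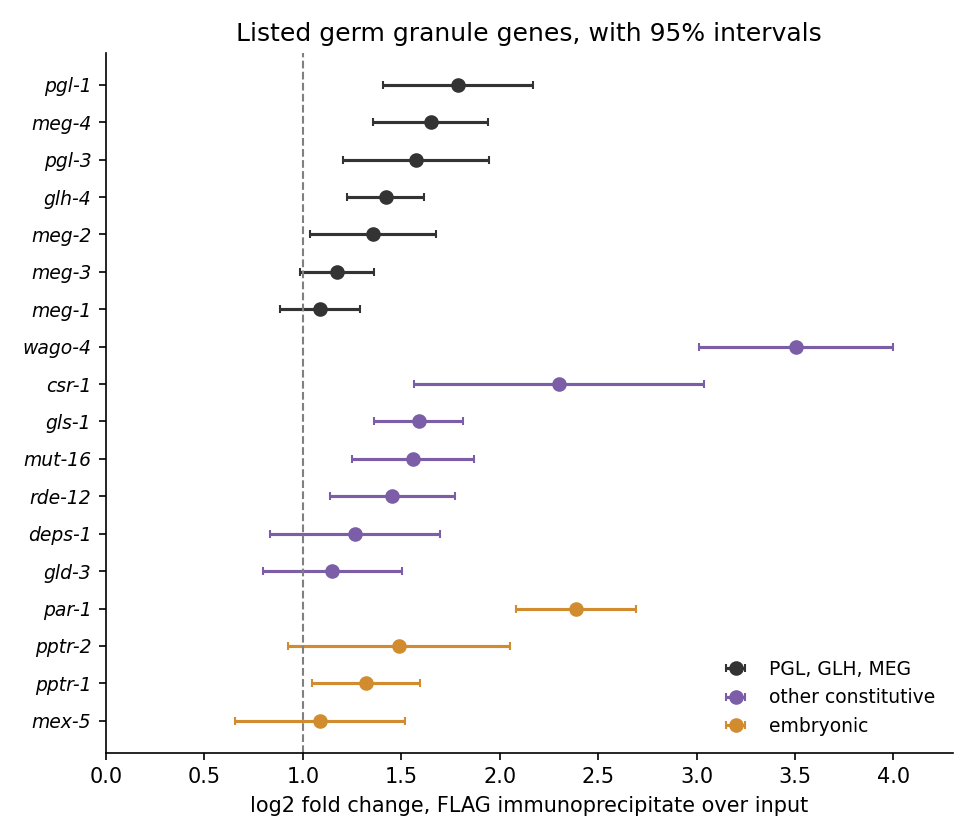
Log2 fold change of FLAG immunoprecipitate over input with 95% intervals, from the authors' deposited table, for every listed gene of the PGL, GLH and MEG families (black), of the other constitutive germ granule genes (violet) and of the embryonic genes (orange); the dashed line marks 2-fold. Most of the genes lie between 1.09 and 1.79, while *wago-4* at 3.51, *par-1* at 2.39 and *csr-1* at 2.30 stand above.

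Markers of somatic tissues were in the same table, so being listed is not limited to germline RNAs. Of 10 muscle markers 8 were listed, of 10 intestine markers 6, of 10 neuron markers 4 and of 12 sperm markers 1, against 13.4% of all genes tested. The share of sperm markers, 8.33%, is near that background. In the authors' deposited table the listed markers had a median log2 fold change of 3.83 for muscle and 1.32 for intestine, against 1.42 for the 7 granule genes. The listed muscle markers ran from 1.17 for *unc-15* to 5.03 for *unc-22*, and *tnt-2* and *lev-11* were not listed. Apart from *pept-1* at 1.15, the listed intestine markers were yolk protein genes. Not listed were *vit-3*, *ges-1*, *elt-2* and *ifb-2*. These medians therefore depend on which genes were picked as markers. The median was 2.55 for the 4 listed neuron markers, of which *rgef-1* (2.49 ± 0.84) had a mean of 10.5 normalized counts and *unc-31* 50.2. The neuron markers *snb-1*, *rab-3*, *unc-119*, *snt-1*, *unc-64* and *egl-3* were not listed. The listed sperm marker, *spe-15*, had 1.23 ± 0.31 (log2 fold change ± SE). The part of tissue content in the folds of the granule genes was not tested.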

How the data were processed

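RNA immunoprecipitation libraries were placed in their groups by title. Per the submitters' processing notes the tools were DESeq2 1.12.3, STAR 2.5.2b-0, Bowtie2 2.3.0 and Trim Galore, and the builds WBcel235 and ce11. The sources used here do not give the counting method or strand setting. Per the file headers the deposited table gives the mean signal, a normalized count averaged by the authors over all libraries, and a log2 fold change with its standard error. The deposited score (stat) is the log2 fold change divided by that error. For all 2725 genes with a p above 0, the p-value in the deposited table is one-sided and follows from the score by a normal distribution, to a relative tolerance of 1e-06. The number of genes tested, 20328, was recovered from the Benjamini-Hochberg adjustment, and 96.2% of the implied ranks were whole to a tolerance of 0.0001.

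Group means were computed as those of groups of equal size with the deposited mean and an unshrunken fold, and the implied CV from the standard error in a negative binomial model. These formulas were tested only on simulated libraries of equal depth, so unequal depth was not covered. Where the standard error was smaller than counting error alone would give, the implied CV was set to 0. That was so for some of the 972 genes in the members' range of means. Intervals are 95% normal intervals. Names were matched to the 46926 genes of the RefSeq table of WBcel235, and 97.4% of the 2732 matched. The text names all 7 members, their 4 paralogues, all genes of the 3 other granule lists, and the nearest protein-coding gene on each side of each member. The name epg-11 was not found in the reference and was left out. A single contrast gives no pattern over samples, so no genes of like pattern were sought. Alternatives were a 4-fold threshold, an adjusted p under 0.001, a test against 2-fold, and a mean of at least 100 normalized counts. The members and lists were chosen with earlier results of these data known. Python 3.11.15, SciPy 1.17.1 and pandas 2.3.3 were used.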

Additional observations from a re-analysis of the deposited data

How the results depend on the processing

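All 7 granule genes (3 PGL and GLH, 4 MEG) stayed listed at an adjusted p under 0.001. So did 2361 of the 2732 listed genes, or 11.6% of genes tested. All 7 also stayed at a mean of at least 100 normalized counts, as did 1676 of the 2732, or 8.24% of genes tested. The 7 were chosen among listed genes, so the counts of listed genes are the closer comparison. At 4-fold 0 of the 7 stayed (0 PGL and GLH, 0 MEG), against 1465 of the 2732 listed genes, or 7.21% of genes tested. In a one-sided test against 2-fold, with Benjamini-Hochberg adjustment at 0.01 over all genes tested, 3 of the 7 passed. The 3 were *pgl-1*, *glh-4* and *meg-4*, so 2 PGL and GLH genes and 1 MEG gene. Of the 2732 listed genes 1350 passed, or 6.64% of genes tested.

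At 4-fold the other constitutive list kept 2 of 7 genes, the embryonic list 1 of 4, the intestine markers 2 of 6 and the sperm markers 0 of 1. Against 2-fold the counts of these 4 lists were 4, 1, 2 and 0. At a mean of at least 100, neuron markers fell to 2 and sperm markers to 0. The other counts moved by 1.5 times or less. With means weighted by the inverse squared standard error, the classes stood at 1.51 (PGL and GLH) and 1.25 (MEG) in log2 fold change. Placing the fold of *pgl-1* at its lower 95% bound gave implied means of 3076 in the immunoprecipitates and 1160 in the inputs, or 403 per kb of span in the inputs, above the 349 of *meg-1*.

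No paired analysis was possible because the table holds no values per library, and for the same reason no replicate was left out. Coding lengths and protein alignments were planned and not run, since the reference used holds neither, and gene span was used for length. The depth of the libraries is unknown.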
